A study of Mus musculus with 6 samples.

Results

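The genes described here are the extracellular and cell-surface metalloproteases of the MMP, ADAM and ADAMTS families and their TIMP inhibitors, measured in CT26, a murine carcinoma line from the colon of the BALB/c strain. They were chosen by name: every gene whose symbol in the array annotation is Mmp, Adam, Adamts or Timp followed by a digit, each read on its probe set with the highest mean over all arrays. This gave 65 genes of 18193 on the array, with 28 Adam, 15 Adamts, 18 Mmp and 4 Timp genes measured by 116 probe sets. A further 5 probe sets that the annotation assigns to several genes were set aside. The control group held 3 samples of CT26 that had received the plasmid pU6-m3 with no insert. The shSep15 group held 3 samples that had received pU6-m3 carrying a short hairpin RNA against Sep15, a selenoprotein of the endoplasmic reticulum (current symbol Selenof). Both groups therefore carried the vector, and 1 hairpin was used; whether the cells were clones or pools is not stated. The hairpin held this 19-nucleotide stretch of the mouse Sep15 cDNA, shown because it defines the treated group.

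Sep15 hairpin: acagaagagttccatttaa

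One Affymetrix Mouse430_2 array was run per sample, and values are log2 signals on the RMA scale, so that a difference of 1 is a doubling. The array medians lay between 5.83 and 5.87. Selenof itself read 12.40 ± 0.05 (SD, n = 3) in control and 9.48 ± 0.13 (SD, n = 3) in shSep15 cells, which left 13.2% of the control signal. Control 3 stood apart on the array controls for 18S ribosomal RNA (8.31 on the 3′ probe set, against 6.01 to 6.53 on the other arrays). Colon epithelial markers were partly present: 6 of 12 (Epcam, Krt8, Krt18, Krt20, Lgals4 and Cldn3) were above the background level, while Cdh1, Vil1 and Cdx2 were near it in both groups. Krt18 and Lgals4 passed only through their control means (6.65 and 6.85, against 4.48 and 5.84 in shSep15 cells). Krt20 was at 8.28 in control and 6.15 in shSep15 cells. Of 9 mesenchymal markers 7 were above background, and of 5 endothelial markers 1, Kdr. Among those 7, Pdgfrb passed only through its control mean (9.05, against 5.69 in shSep15 cells).

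Matrix metalloproteases are zinc enzymes that cut collagens and other matrix proteins. Most are secreted as inactive precursors, and the membrane-type enzymes stay at the cell surface. ADAM proteins are membrane-anchored and release the outer domains of growth factors, receptors and adhesion proteins, a step called shedding, and ADAMTS proteins are secreted enzymes that bind matrix and cut proteoglycans and procollagens. TIMP proteins occupy the active site of MMPs and of some ADAM and ADAMTS enzymes. In carcinomas the whole system is studied for its part in invasion and in the release of growth factors, and in tumours much of the MMP expression comes from stromal and immune cells, which a cultured line lacks.

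Promoter sequences are shown for the 3 members with an entry in the RefSeq promoter table that had the largest differences between the groups. Each holds the 250 bases before the annotated start (build GRCm38.p6, 5′ to 3′ on the gene's strand), and capitals mark matches to the AP-1 letters TGANTCA or the TATA-box letters TATAAA, on either strand. The marked matches do not overlap each other.

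Mmp13 (chr9:7272264-7272513, plus strand): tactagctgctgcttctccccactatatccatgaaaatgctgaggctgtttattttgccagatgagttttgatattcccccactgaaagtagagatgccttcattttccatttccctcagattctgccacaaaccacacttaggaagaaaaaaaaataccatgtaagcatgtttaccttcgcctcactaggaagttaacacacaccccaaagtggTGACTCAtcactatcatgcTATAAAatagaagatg

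Adamts1 (chr16:85803114-85803363, minus strand): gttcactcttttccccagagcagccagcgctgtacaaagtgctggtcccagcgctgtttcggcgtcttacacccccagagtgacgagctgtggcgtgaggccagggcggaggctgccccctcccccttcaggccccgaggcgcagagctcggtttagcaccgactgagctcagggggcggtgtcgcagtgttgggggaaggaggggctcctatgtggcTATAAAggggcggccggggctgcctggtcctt

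Mmp11 (chr10:75932503-75932752, minus strand): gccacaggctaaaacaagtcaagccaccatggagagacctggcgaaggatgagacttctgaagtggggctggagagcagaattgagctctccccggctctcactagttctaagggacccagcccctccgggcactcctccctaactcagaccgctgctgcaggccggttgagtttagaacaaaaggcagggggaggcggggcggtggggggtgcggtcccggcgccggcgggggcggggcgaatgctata

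The Mmp13 stretch held 1 AP-1 match, beginning at −35 from the start site, and 1 TATAAA, beginning at −16. The Adamts1 stretch held 1 TATAAA and no AP-1 match, and the Mmp11 stretch held neither. Over all 32851 promoters of the table, 6.75% held TGANTCA and 12.4% held TATAAA in the same 250 bases. Of the 65 members, 37 were found in the table, with 42 promoters, of which 10 held TGANTCA and 10 TATAAA. The 10 genes with an AP-1 match were Adam19, Adam25, Mmp10, Mmp12, Mmp13, Mmp1a, Mmp1b, Mmp20, Mmp3 and Mmp7. These are matches of letters and not shown binding sites.

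Most of the 65 genes gave no signal above background. Odorant and pheromone receptors served as genes not expected in these cells: the background level, log2 6.02, was set at the 95th percentile of the means of their 78 probe sets, and a gene was counted as above it if the mean of either group exceeded it. By this measure 22 of the 65 members (33.8%) were above background, against 61.1% of all genes. They were 8 Mmp genes (Mmp2, Mmp7, Mmp11, Mmp14, Mmp17, Mmp19, Mmp23 and Mmp24), 7 Adam genes (Adam4, Adam9, Adam10, Adam11, Adam15, Adam17 and Adam33), 5 Adamts genes (Adamts1, Adamts4, Adamts8, Adamts10 and Adamts16) and 2 inhibitors (Timp1 and Timp2). Mmp2 and Mmp19 passed only through their control means. The level sets the count: with the 99th percentile of the receptor probe sets it was 10, and with the 90th it was 32. Just above the level lay Mmp2, with a higher group mean of 6.08, and Adam11, with 6.14; just under it lay Adam21 (6.02) and Mmp10 (5.94).

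By role, the share above background was highest among the membrane-anchored MMPs and the ADAM sheddases. Of the 9 ADAM genes known as active sheddases 5 were above background, as were 4 of the 5 membrane-anchored MMPs. Of the 4 interstitial collagenases none was, and of the gelatinases Mmp2 was and Mmp9 was not (5.33 to 5.58 over the 6 arrays). Of the 16 ADAM genes known mainly from testis and epididymis, 1 was, Adam4. Among male germ cell markers 2 of 8, Prm1 and Prm2, were above background. The members near background were, among the MMPs, the collagenases Mmp1a, Mmp1b, Mmp8 and Mmp13, the gelatinase Mmp9, the stromelysins Mmp3 and Mmp10, the metalloelastase Mmp12, the membrane-type Mmp16 and the tooth enamel enzyme Mmp20. Among the ADAM genes they were the sheddases Adam8, Adam12, Adam19 and Adam28, the neural Adam22 and Adam23, and the reproductive-tract genes Adam1a, Adam1b, Adam2, Adam3, Adam5, Adam6a, Adam6b, Adam7, Adam18, Adam21, Adam24, Adam25, Adam26a, Adam32 and Adam34. Among the ADAMTS genes they were the proteoglycan-cleaving Adamts5, Adamts9, Adamts15 and Adamts20, the procollagen enzyme Adamts3, and Adamts6, Adamts7, Adamts12, Adamts18 and Adamts19. Of the inhibitors they were Timp3 and Timp4. The 43 members near background read 3.67 to 6.18 on single arrays. In 21 of these 43 the highest control array was control 3, the array with the high ribosomal RNA signal, and in 24 the highest shSep15 array was shSep15 2.

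The comparison of 3 control with 3 shSep15 arrays asked which of these genes differed once Sep15 was knocked down. Of the 65 members 3 rose (Adamts1, Adam15 and Adam17) and 5 fell (Mmp13, Mmp19, Mmp11, Mmp2 and Adamts4) at limma's adjusted p under 0.05. That is 4.62% higher and 7.69% lower, beside 12.2% of all 18193 genes higher and 12.8% lower by the same rule. Both shares of the members are under those of all genes, and fewer of the members were above background. Among the 22 members above background 13.6% were higher and 18.2% lower, beside 19.2% and 20.0% of all genes above background. Mmp2 and Mmp19, among those lower, entered the 22 only through their control means, so this filter could admit them only as falls. Of genes near background 1.13% were higher and 1.43% lower. The arrays of the groups did not overlap in 6 members that were higher in shSep15 cells and in 8 that were lower, beside 19.3% and 18.7% of all genes. The median difference was −0.01 over all members and 0.01 over all genes. Every call among the Mmp genes was a fall and every call among the Adam genes was a rise, while the Adamts genes had 1 of each and the Timp genes had none; whether the families differ was not tested.

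**Figure D1:**
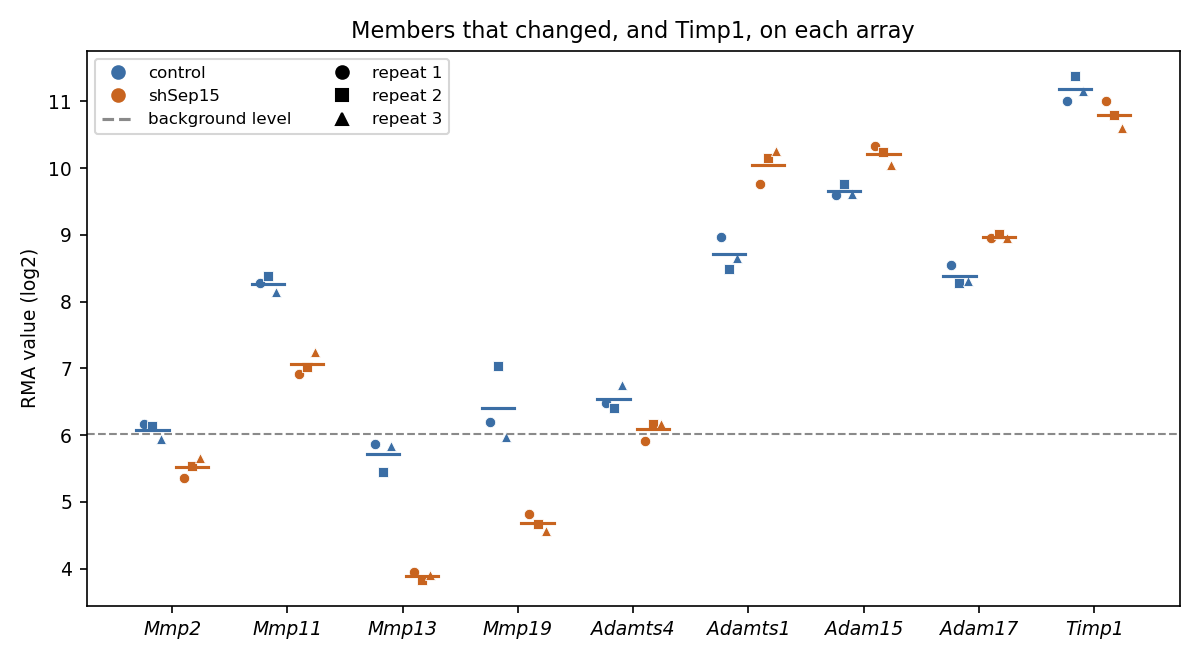
RMA values (log2, vertical axis) of the 8 members that changed and of Timp1 on each array; blue symbols are control and orange symbols shSep15 samples, symbol shapes give the repeat number, horizontal bars are group means and the dashed line is the background level of 6.02. The groups do not overlap in any of the 9 genes, and for Timp1 the gap is between 11.01 on control 1 and 11.00 on shSep15 1.

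Among the secreted MMPs, Mmp13, a collagenase that cuts fibrillar collagen, showed the largest difference. It read 5.87, 5.45 and 5.84 on the control arrays and 3.95, 3.82 and 3.90 on the shSep15 arrays. All shSep15 arrays lay below all control arrays, and the log2 difference was −1.83 (SE 0.12, limma adjusted p = 1.55e-05), a 3.56-fold lower signal. Both group means were under the background level, so Mmp13 is counted as near background and the size of the fall is not exact. Of all genes near background 1.43% were called lower.

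Mmp19, an enzyme of basement membrane and other matrix proteins, read 6.20, 7.03 and 5.97 on the control arrays and 4.83, 4.67 and 4.57 on the shSep15 arrays. Control 2 was the high array and gave the control group the widest spread of the changed members (6.40 ± 0.56, SD, n = 3), yet the groups did not overlap. The log2 difference was −1.71 (SE 0.24, limma adjusted p = 0.0009). The shSep15 mean of 4.69 was under the background level, so this size is not exact either. The gene's other probe set, near background in both groups, gave −0.78 (limma adjusted p = 0.0741) with the same high control 2 (6.56).

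Mmp11, also called stromelysin-3, is activated inside the cell by furin-like convertases before it is secreted. It was measured above background on every array: 8.28, 8.39 and 8.14 in control and 6.92, 7.02 and 7.25 in shSep15 cells. The groups were apart by more than their spread, with a log2 difference of −1.21 (SE 0.13, limma adjusted p = 0.000215), a 2.31-fold lower signal (95% interval 1.88 to 2.83). Its neighbours in the RefSeq gene order, Smarcb1 and Chchd10, differed by −0.04 and −0.23 and were not past the threshold.

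Mmp2, the gelatinase that Mmp14 activates at the cell surface, read 6.16, 6.13 and 5.94 in control and 5.36, 5.54 and 5.66 in shSep15 cells, close to the background level throughout. The difference was −0.56 (SE 0.12, limma adjusted p = 0.0094), and the other probe set of the gene, near background, was also lower (−0.46, limma adjusted p = 0.0146). The remaining secreted MMPs did not pass the threshold. The stromelysin Mmp3, near background, was at 5.23 in control and 5.54 in shSep15 cells without overlap of the arrays (difference 0.31, limma adjusted p = 0.112). The matrilysin Mmp7 differed by −0.05 with overlapping groups.

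Membrane-anchored MMPs did not pass the threshold. Mmp14, the membrane-type enzyme that cuts collagen and activates pro-Mmp2, read 9.47, 9.82 and 9.61 in control and 9.85, 9.88 and 10.01 in shSep15 cells. The arrays did not overlap, but the difference of 0.28 (95% interval 0.03 to 0.52) had a limma adjusted p of 0.124, and both other probe sets gave 0.19. Mmp17, Mmp23 and Mmp24 differed by −0.08, −0.33 and 0.08 with overlapping groups; a second probe set of Mmp24, also above background, gave 0.28 without overlap but did not pass (limma adjusted p = 0.183). Mmp16 was near background.

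In the mouse genome, 9 of the measured MMPs form a run on chromosome 9, in the order Mmp13, Mmp12, Mmp1b, Mmp3, Mmp1a, Mmp10, Mmp8, Mmp20 and Mmp7, with Mmp27, not analysed here, between Mmp8 and Mmp20. Of these 9 genes 1, Mmp13, was called, and the differences of the other 8 lay between −0.22 and 0.31. The adjacent Mmp12, the macrophage metalloelastase, read 3.96, 3.99 and 4.70 in control and 3.91, 4.10 and 3.99 in shSep15 cells, with control 3 the array that stood apart. On the far side of Mmp13, Dcun1d5 differed by 0.16 (limma adjusted p = 0.339). Of the 9 genes in this run 8 had a promoter with an AP-1 letter match; Mmp12 and Mmp7 each have a further promoter entry without one.

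**Figure D2:**
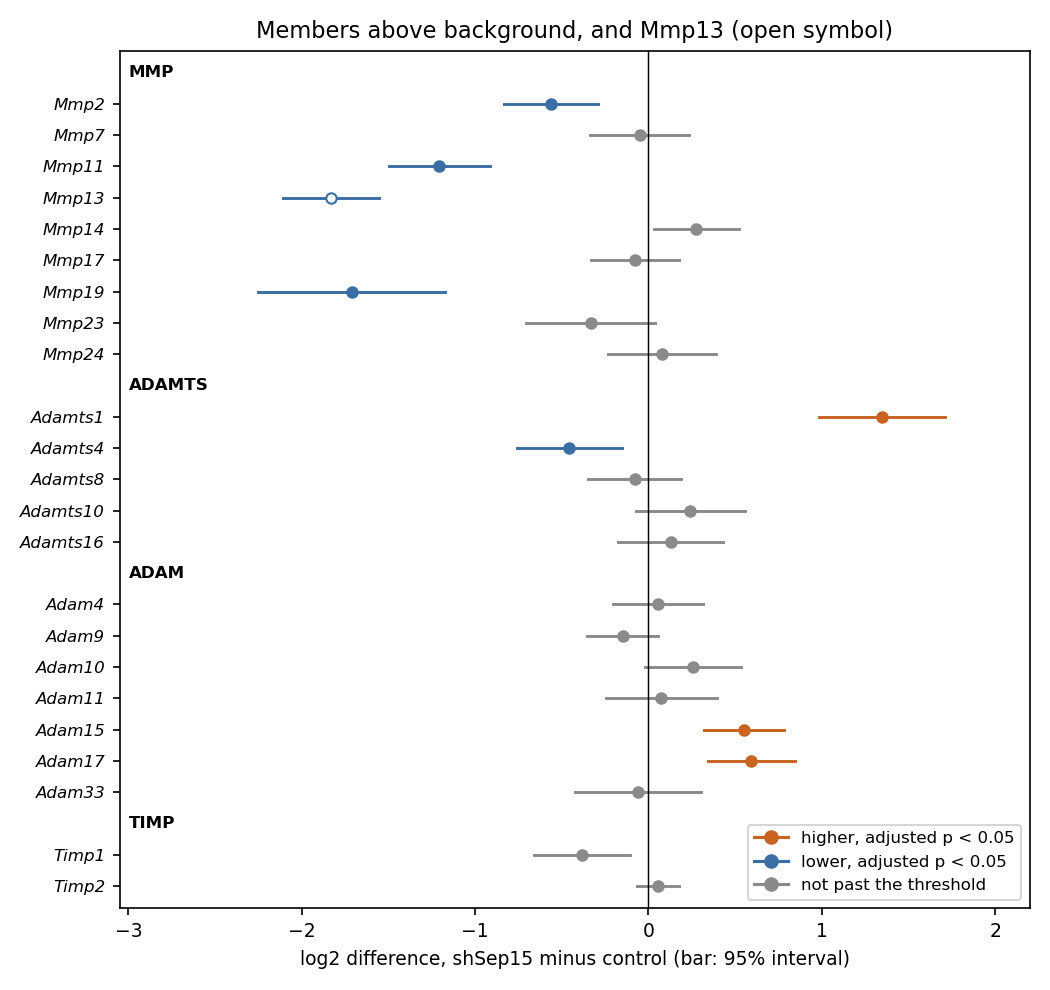
Log2 difference between shSep15 and control (horizontal axis) of the 22 members above background and of Mmp13 (open symbol), by family; bars are 95% intervals of the limma fit, orange marks higher, blue lower and grey not past the threshold. The 4 blue Mmp genes lie from −1.83 to −0.56 and the orange genes from 0.55 to 1.35.

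Adamts1, a secreted enzyme that cuts the proteoglycans aggrecan and versican and also binds VEGF, had the greatest rise of the 65 genes. It read 8.97, 8.49 and 8.66 on the control arrays and 9.77, 10.14 and 10.25 on the shSep15 arrays. The groups were clearly apart, with a log2 difference of 1.35 (SE 0.16, limma adjusted p = 0.000367), a 2.54-fold higher signal (95% interval 1.98 to 3.27). Adamts5, its neighbour on chromosome 16 and the main aggrecanase of mouse cartilage, was near background in both groups (4.91 and 4.79). The gene on its other side, Cyyr1, was near background too, and differed by −0.29 (limma adjusted p = 0.126).

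Adamts4, another aggrecanase, read 6.48, 6.40 and 6.74 in control and 5.91, 6.17 and 6.17 in shSep15 cells. The difference of −0.46 (SE 0.13, limma adjusted p = 0.0415) passed the threshold narrowly. The call ended without any 1 of the 6 arrays (limma adjusted p from 0.0565 to 0.144) and with the mean of its probe sets (−0.21, limma adjusted p = 0.207), its other probe set being near background. Adamts8, Adamts10, an enzyme of fibrillin microfibrils, and Adamts16 differed by −0.08, 0.24 and 0.13 and were not past the threshold, although all arrays of Adamts10 in shSep15 cells (7.31 to 7.48) lay above those in control cells (6.88 to 7.26).

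Of the ADAM sheddases, Adam17, the main enzyme that releases TNF and several ligands of the EGF receptor, read 8.55, 8.29 and 8.31 in control and 8.95, 9.01 and 8.96 in shSep15 cells. It was higher by 0.59 (SE 0.11, limma adjusted p = 0.00445), a 1.51-fold signal, with a narrow spread in the shSep15 group (SD 0.03, n = 3). All 3 of its probe sets were above background and higher, by 0.37 to 0.62, and 2 of them passed the threshold.

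Adam15, a sheddase with an integrin-binding motif that was described in cadherin cleavage, read 9.60, 9.77 and 9.61 in control and 10.33, 10.24 and 10.05 in shSep15 cells. The difference was 0.55 (SE 0.10, limma adjusted p = 0.00435). Its 4 probe sets were all above background and higher, by 0.45 to 0.74, and 2 of them passed. Adam15 lies on chromosome 3, where 42.5% of 543 genes above background were higher and the median difference was 0.26; its nearest neighbours Efna4 and Dcst1 differed by 0.24 and 0.10 and were not past the threshold. The part of the chromosome in the rise of Adam15 was not tested.

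Adam10, the sheddase of Notch receptors and of several adhesion proteins, read 9.99, 9.84 and 9.70 in control and 10.27, 9.88 and 10.15 in shSep15 cells. The groups overlapped and the difference of 0.26 (95% interval −0.02 to 0.53) had a limma adjusted p of 0.214. Its 3 probe sets above background gave 0.12 to 0.27. Adam9 read 11.55, 11.38 and 11.26 in control and 11.13, 11.25 and 11.36 in shSep15 cells, again overlapping, with a difference of −0.15 (95% interval −0.35 to 0.06, limma adjusted p = 0.343). Adam33, Adam11 and Adam4 differed by −0.06, 0.07 and 0.05. Among the ADAM genes near background, Adam12 (0.41, limma adjusted p = 0.0724) and the non-catalytic neural Adam22 (−0.39, limma adjusted p = 0.0584) came nearest to the threshold. Adam22 passed without control 3 (0.0194) and without the intensity trend of the fit (0.0494), Adam12 without control 2 (0.0205) and over gene means, and the testis gene Adam24 (−0.29) without shSep15 2 (0.0363).

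**Figure D3:**
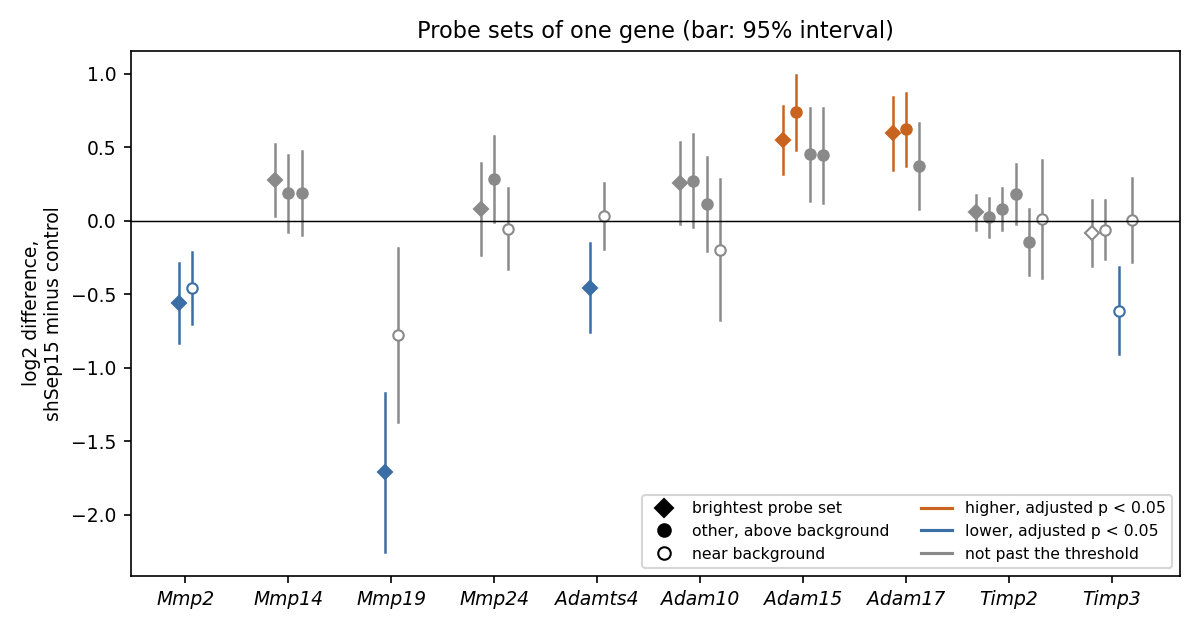
Log2 difference between shSep15 and control (vertical axis) of every probe set of 10 members with several probe sets; diamonds are the brightest probe set, filled circles other probe sets above background, open symbols those near background, and bars are 95% intervals. The 4 probe sets of Adam15 and the 3 of Adam17 all lie above 0, whereas 1 dim probe set of Timp3 was called lower and its other 3 were not.

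The inhibitors did not pass the threshold. Timp1, a secreted inhibitor of most MMPs that is inducible by cytokines and growth factors, read 11.01, 11.38 and 11.16 in control and 11.00, 10.80 and 10.60 in shSep15 cells. All shSep15 arrays lay below the control arrays, though by 0.01 at the nearest pair, control 1 and shSep15 1. The difference of −0.38 (95% interval −0.66 to −0.11) had a limma adjusted p of 0.0573, just outside the threshold. It passed without control 1 (0.0441), without shSep15 1 (0.0345), when only probe sets above background were adjusted over (0.0310), and over gene means (0.0430).

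Timp2, which inhibits MMPs and also links pro-Mmp2 to Mmp14, read 12.57, 12.67 and 12.73 in control and 12.65, 12.73 and 12.76 in shSep15 cells. The groups overlapped, and the 95% interval of the difference, −0.07 to 0.18, allows at most a small change in either direction. Its 5 probe sets above background gave −0.14 to 0.18 and none passed. Timp3, the matrix-bound inhibitor that also acts on Adam17, was near background on all 4 probe sets. Its brightest differed by −0.08, and 1 dimmer set, at 4.90, 4.70 and 5.26 in control and 4.36, 4.35 and 4.31 in shSep15 cells, was called lower (−0.61, limma adjusted p = 0.00972). Timp4 was near background (4.67 and 4.82).

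Several Mmp genes are also known from leukocytes, and markers of those cells were read beside them. Of 11 leukocyte markers measured 5 (Cd3e, Csf1r, Elane, Lyz2 and Cd68) were above background, and Ptprc, the pan-leukocyte antigen CD45, was near it (4.14 in control, 4.23 in shSep15 cells). The median difference of the 11 was 0.02. Cd68, a lysosomal protein of macrophages, the lysozyme gene Lyz2 and, near background, the integrin Itgam fell by 1.48, 0.47 and 0.37. The other 8 were not past the threshold and differed by −0.10 (S100a8) to 0.25 (Mpo). The log2 values of the 11 summed to 63.1 to 64.8 on the control arrays and to 61.9 to 62.5 on the shSep15 arrays, a fall that lies in those 3 genes. Of the 9 mesenchymal markers 4 rose and 2 fell, and of the 12 epithelial markers 3 fell (Krt18, Krt20 and Lgals4) and none rose. Of all genes 12.2% were higher and 12.8% lower. The mesenchymal falls (Pdgfrb, −3.36, and Col3a1, −2.27) were larger than the rises, which lay between 0.23 (Vim) and 1.35 (Pdgfra). Of the endothelial and male germ cell markers none was called. The part of these markers in the members' differences was not tested. Fewer cells of a kind and less RNA per cell cannot be told apart in such bulk samples.

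A list of genes that act with these enzymes was read in the same fit. The list was drawn from general knowledge, but with earlier results of these data known. It held 77 inhibitors and inducers, activating convertases, regulators of Adam10 and Adam17, related metalloproteases and shed substrates, of which 74 were measured and 47 were above background. Of the 74, 6 rose (8.11%) and 12 fell (16.2%), with a median difference of −0.02; for all genes the shares were 12.2% and 12.8% and the median 0.01. By role, the shed substrates had 2 rises and 9 falls among 39 and the regulators of Adam10 and Adam17 had 2 rises and no fall among 9. Without shSep15 1 the number of rises in the whole list was 3 in place of 6.

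The regulators that rose were Tspan5, a tetraspanin that carries Adam10 to the surface, and Frmd8, a partner of the iRhom proteins that stabilises Adam17. Tspan5 read 9.02, 8.88 and 8.84 in control and 9.82, 9.68 and 9.76 in shSep15 cells, a difference of 0.84 (SE 0.10, limma adjusted p = 0.000307) with wide separation of the groups. Like Adam15 it lies on chromosome 3. Frmd8 was higher by 0.46 (limma adjusted p = 0.00872). The iRhom genes Rhbdf1 and Rhbdf2 differed by −0.05 and −0.32 and did not pass. Bsg, the membrane protein known as the inducer of MMPs, was higher by 0.25 (limma adjusted p = 0.0159), and this call ended without control 1, without shSep15 1 and without the intensity trend of the fit. Reck, a membrane-anchored inhibitor of MMPs, differed by −0.01.

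Furin, the convertase that activates Mmp11, Mmp14 and most ADAM precursors, read 9.89, 9.77 and 9.56 in control and 9.19, 9.21 and 9.13 in shSep15 cells. All shSep15 arrays were lower, with a difference of −0.57 (SE 0.11, limma adjusted p = 0.00498). The related Pcsk7 differed by 0.26 and did not pass. Among related proteins, Adamtsl3, an ADAMTS-like matrix protein without a protease domain, fell by 1.33 (SE 0.12, limma adjusted p = 9.44e-05), from 8.51 to 8.72 on the control arrays to 7.12 to 7.43 on the shSep15 arrays. Mep1a, a meprin subunit of the gut epithelium, fell by 1.25 (limma adjusted p = 0.0003), and by 0.83 as the mean of its probe sets. Adamtsl4 was higher by 0.43 (limma adjusted p = 0.0374), a call lost without any 1 array other than control 3.

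Of the substrates that Adam17 and Adam10 release, the EGF receptor ligands Ereg and Hbegf and the related Nrg1 were lower. Ereg read 11.71, 11.48 and 11.53 in control and 11.02, 10.70 and 10.56 in shSep15 cells, a difference of −0.81 (SE 0.12, limma adjusted p = 0.00113). Nrg1 (−0.70, limma adjusted p = 0.0362) and Hbegf (−0.57, limma adjusted p = 0.0186) had less stable calls: that of Nrg1 ended without any 1 array other than control 3 (at −0.46 without control 1), and that of Hbegf without control 1 or 2 or shSep15 2 or 3. The 1 other probe set of Hbegf above background was not called lower. The other measured ligands of this receptor did not pass: Tgfa differed by −0.30 and, near background, Btc by −0.07, Epgn by 0.17 and Egf by 0.40. Areg, also on the list, was not among the genes measured. All shSep15 arrays of Egf (5.88 to 6.21) lay above its control arrays (5.47 to 5.72), with a limma adjusted p of 0.0593, and it passed over gene means.

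Kitl, the ligand of the receptor Kit, fell by 0.70 (limma adjusted p = 0.00149), and all 3 of its other probe sets above background were called lower as well. Lrp1, an endocytic receptor that clears MMPs and TIMPs, fell by 0.67 (limma adjusted p = 0.0139), a call that ended without control 3 (0.0568); the mean over its probe sets was −0.34. The growth factor Csf1 was lower by 0.49 and the interleukin receptor Il6ra by 0.51 (limma adjusted p = 0.00499 and 0.0193), the latter ending without control 1 or 2 or shSep15 1 or 2. Of their other probe sets above background, 2 of 3 of Csf1 and none of 1 of Il6ra were called lower. App (−0.42) and Efnb1 (−0.39) were the other substrates that fell, and the call of Efnb1 ended without any 1 array. N-cadherin, Cdh2, was higher by 0.50 (SE 0.09, limma adjusted p = 0.00387), as was Vcam1 (0.47, limma adjusted p = 0.0154; not called without control 2 or 3 or shSep15 1 or 3), while the hyaluronan receptor Cd44 and the Notch receptors Notch1 and Notch2 did not pass.

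**Figure D4:**
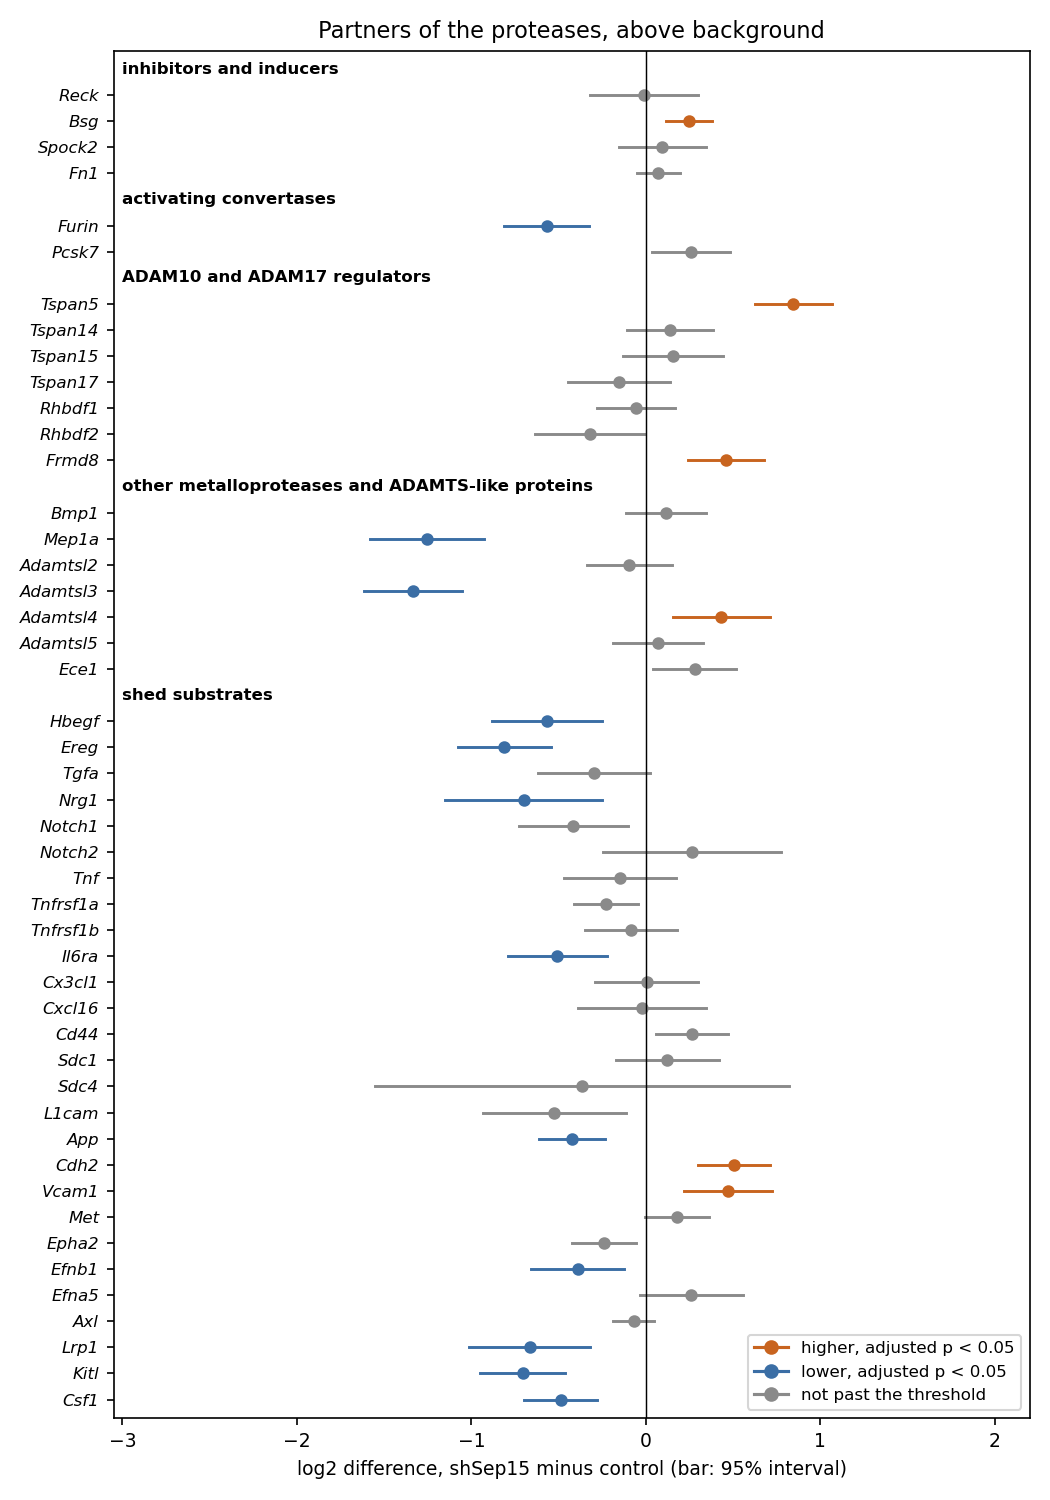
Log2 difference between shSep15 and control (horizontal axis) of the 47 listed partners above background, by role; bars are 95% intervals, orange marks higher, blue lower and grey not past the threshold. The 9 shed substrates in blue lie from −0.81 to −0.39 and the 2 in orange are Cdh2 and Vcam1. Efnb1, at −0.39, passed the background level only through its control mean.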

How the data were processed

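RNA of 6 CT26 samples, 3 control and 3 shSep15, grouped by their titles, was measured on 6 arrays. The deposited log2 values were made with RMA, per the submitters' processing notes; version and filters: not given in the sources used here. RMA compresses differences of dim probe sets and gives no detection call, and depth has no meaning here: the number of arrays limits precision. Whether samples came from separate cultures is not stated, so p-values measure only the spread between these samples.

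Of 45101 probe sets, 64 array controls were left out. The other 45037 were fitted with limma 3.58.1 in R 4.3.3 (lmFit, eBayes with trend, group the only term), two-sided, adjusted by Benjamini-Hochberg over 45037. In the platform annotation 34945 probe sets had 1 symbol, 932 several and 9160 none; only the first were named. The fit was tested on simulated data. Named were the targeted gene, all members above background or past the threshold, and the 12 largest called partners; other partners were singled out after their values were seen. Members, lists and tests were chosen with earlier results of these data known. The alternatives were the replicate block, no trend, median shift, probe set means, a background filter, other background percentiles, arrays left out and chromosomes left out.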

Additional observations from a re-analysis of the deposited data

How the results depend on the processing

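Of the 8 members called, 7 kept direction and call in every alternative that could be fitted for them, and Adamts4 lost its call in 7 of 11. Mmp13 was not tested among probe sets above background. The number of members called higher ranged from 3 to 4 without 1 array and was 4 with the replicate block, which called Adam12 in addition (limma adjusted p = 0.0206) and lost none. Whether the repeat numbers pair the samples is not stated. Deviations of same-numbered arrays correlated at 0.38, −0.15 and −0.02. Those of differently numbered arrays ran from −0.36 (control 3 and shSep15 1) to 0.37 (control 3 and shSep15 2). With 3 arrays per group these values cannot decide whether samples were paired. Members called lower ranged from 4 to 5 without 1 array and were 6 without the intensity trend, which added Adam22 (limma adjusted p = 0.0494). The number above background was 10 with the 99th percentile, and 22 to 24 without 1 array.

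Partners called higher ranged from 3 to 6 without 1 array, and those called lower from 8 to 11. With the replicate block 7 were higher and 11 lower: Adamtsl4 and Efnb1 lost their calls, and Cd44 and Egf gained one. Of genes above background, 42.5%, 32.8% and 31.7% were higher on chromosomes 3, 4 and 17, and 46.2% and 32.8% lower on 18 and X. Over all chromosomes 19.2% were higher and 20.0% lower. Without these 5 chromosomes 2 partners were higher and 7 lower, by construction from fewer genes. The rises left out were Tspan5, Adamtsl4 and Vcam1 (chromosome 3) and Cdh2 (18). The falls left out were Csf1 and Il6ra (3), Mep1a (17), Hbegf (18) and Efnb1 (X). The part of the chromosomes in these calls was not tested. Signs turned, all far from the threshold, among values without 1 array, which ranged from −0.0537 (without control 3) to 0.181 for Adam11, from −0.172 to 0.068 (without shSep15 1; 0.06 without control 3) for Adam33, from −0.139 to 0.0262 (without control 3; 0.02 without shSep15 1) for Mmp7, and from −0.036 (without shSep15 2) to 0.197 for Mmp24. The cause was not tested.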

Other observations

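Besides the MMP run on chromosome 9, some of the ADAM genes lie next to each other in the RefSeq gene order. On chromosome 8, Adam18, Adam3, Adam5, Adam32 and Adam9 follow each other. Adam9, expressed in many tissues, read 11.13 to 11.55 on the 6 arrays, whereas the brightest probe sets of Adam18, Adam3, Adam5 and Adam32, known from testis, were near background in both groups. On chromosome 12, Adam4 was above background (7.63 and 7.68 in control and shSep15 cells) and Adam21, separated from it by Synj2bp, lay just under the level in both groups, at most 6.02 as a mean. None of these genes passed the threshold between the groups.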
